A study of Mus musculus with 8 samples.

Results

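The genes of cholesterol synthesis and of its control by the transcription factor SREBP2 were described in RNA from mouse liver tumours and from liver without tumour. They were taken by name from a list of pathway genes: 26 of the 54838 genes in the count files, made up of 5 enzymes of the early mevalonate steps, 3 of the isoprenoid chain, 3 that make squalene and the first sterol, 8 that turn lanosterol into cholesterol, 4 genes of SREBP2 sensing and 3 of sterol transport and receptor turnover. Each of the 26 matched 1 gene ID. The RNA came from 4 libraries labelled tumour and 4 labelled non-tumour, all from male wild-type C57BL/6J mice. All of these mice, the non-tumour ones included, had been injected intraperitoneally with the liver carcinogen diethylnitrosamine (DEN) on day 15 and fed a high-fat diet with SW, which the labels do not spell out. The time point is 30 weeks, given in one label as the duration of feeding and in another as time since the injection. The labels do not say which pieces came from which mouse, and the set has no mice without DEN or on another diet.

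Cholesterol is built from acetyl-CoA through mevalonate, isoprenoid diphosphates, squalene and lanosterol, and the liver makes much of the body's supply. When membranes of the endoplasmic reticulum hold little sterol, SCAP carries SREBP2 to the Golgi, where it is cut, and the freed fragment enters the nucleus and raises transcription of nearly every enzyme of the chain. When sterol is plentiful, the INSIG proteins hold SCAP and SREBP2 back, so the transcripts of the chain tend to move as a block in liver.

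The 8 libraries held 15446690 to 21977052 assigned reads and amounted to 5 distinct profiles. Tumours 2 and 4 were nearly the same, as were non-tumours 2, 3 and 4. The chi-square of their counts, divided by its degrees of freedom, was 1.58 to 3.28 in these 4 pairs of libraries and 71.7 or more in every other pair. Each such set was summed and counted as 1 sample, which left 3 tumour profiles (1, 2/4 and 3) against 2 non-tumour ones (1 and 2/3/4). The p-values measure only the spread between these profiles, which may be technical or biological. All libraries carried hepatocyte transcripts, with 9 hepatocyte markers summing to 136536 to 186785 CPM (read counts put on one library size, after TMM scaling for library composition) in tumours and 109285 to 128971 CPM in non-tumour tissue. Alb alone gave 86388 to 138691 CPM in the tumour profiles and 73123 and 80520 CPM in the non-tumour ones. The fold change of tumour over non-tumour was positive for 4 of the 9 markers (44.4%, against 52.2% of all genes tested). Non-tumour 1 stood apart in markers of other cells. The 7 Kupffer cell and macrophage markers summed to 174.7 to 214.5 CPM in tumours, against 548.9 CPM in non-tumour 1, whose 3 fellow libraries had 185.1 to 186.7 CPM, and all 7 were higher there than in non-tumour 2/3/4. The 7 endothelial markers summed to 123 to 161 CPM in tumours, against 267 CPM in non-tumour 1, with 113 to 114 CPM in non-tumours 2 to 4, and again all 7 were higher in non-tumour 1. The 7 cholangiocyte markers summed to 405, 189, 198 and 22.7 CPM in tumours 1, 2, 4 and 3 and to 33.1 to 39.9 CPM in non-tumour tissue, with Cftr at no more than 0.317 CPM in any profile. Stellate cell markers (7 genes) summed to 199 to 243 CPM in tumours and 196 to 205 CPM in non-tumour tissue, and lymphocyte markers (8 genes) to 6.79 to 8.69 CPM in tumours and 8.98 to 10.1 CPM in non-tumour tissue. Of the 5 adipocyte markers, which summed to 0.683 to 3.80 CPM in tumours and 1.51 to 3.62 CPM in non-tumour tissue, Lep was at 0 in every library. In bulk tissue, fewer cells of a type and less RNA per cell cannot be told apart.

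Across the pathway, libraries of the same label differed from each other. Tumour 1 had the highest level of 17 of the 26 genes (65.4%), whereas it was the highest profile for 20.1% of the 13650 genes tested. Tumour 1 was chosen for this count with earlier results of these data known, so the count is a description and not a test. Non-tumour 2/3/4 had the lowest level of 17 of the 26 (65.4%, against 17.2% of all genes tested). Summed over the 26 genes, the level was 5151 CPM in tumour 1, 3912 and 3911 CPM in tumours 2 and 4 and 3689 CPM in tumour 3, against 4095 CPM in non-tumour 1, with 2918 to 2936 CPM in non-tumours 2 to 4. Non-tumour 1 thus lay above the near-identical tumours 2 and 4 and above tumour 3, and the groups overlapped. Tumour 1 was also the library with the highest hepatocyte, cholangiocyte and stellate cell sums above. Its hepatocyte sum was mostly Alb (138691 CPM). Of the 9 hepatocyte markers, 4 were higher in tumour 1 than in non-tumour 2/3/4 and 5 lower (median log2 difference -0.16). Its cholangiocyte sum was mostly Spp1 (204 CPM) and Tspan8 (189 CPM). The part of these cell types in the levels of the 26 genes was not tested. All 26 genes passed the filter on low counts, with 63 (Mylip) to 20304 reads (Hmgcs1) in a library at the extremes.

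**Figure D1:**
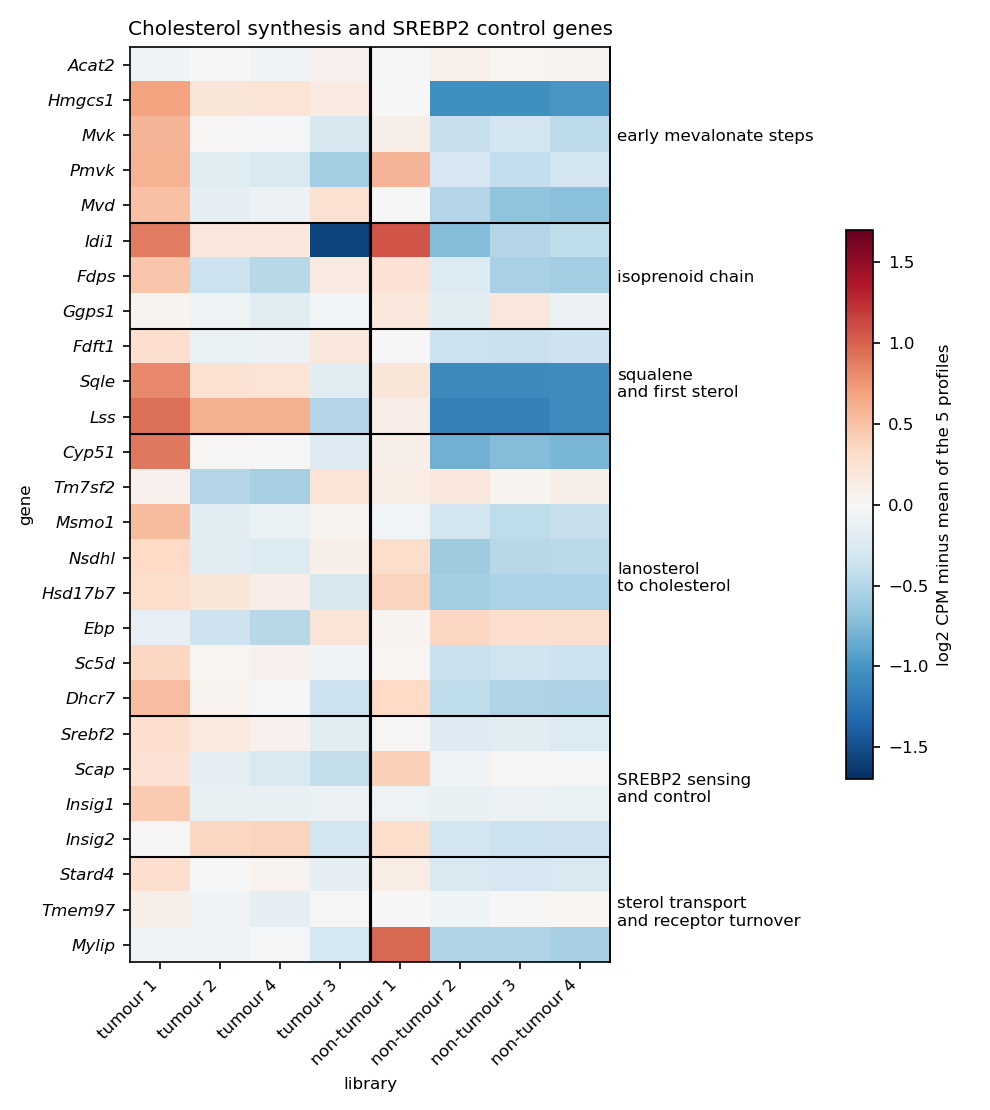
Level of each of the 26 genes (rows, grouped by pathway step) in each library (columns, tumours left of the vertical line, non-tumour libraries right of it), as log2 CPM minus the mean of the 5 profiles. Red is higher and blue lower. Tumour 1 and non-tumour 1 are mostly red, non-tumours 2 to 4 mostly blue, and tumour 3 differs from gene to gene.

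Whether the chain is expressed at another level in tumours was tested against the non-tumour tissue, and 0 of the 26 passed the quasi-likelihood test of edgeR at a Benjamini-Hochberg adjusted p of 0.05. Over all genes the test called 0 of 13650 (0%), and 451 of all genes and 0 of the 26 had an unadjusted p under 0.05. On the same profiles limma voom and DESeq2 also called 0 of the 26, with 0 and 1 of them at an unadjusted p under 0.05. With the 8 libraries taken as separate replicates, which counts near-identical libraries more than once, 0 of the 26 passed as well, against 56 of 12880 genes (0.435%), and 8 of the 26 had an unadjusted p under 0.05, against 2321 of all genes. The fold change was positive for 18 of the 26 (69.2%) and for 52.2% of all genes tested, and the median log2 fold change was 0.13 against 0.01. The adjusted p of every one of the 26 lay between 0.995 and 0.999, so the differences below are levels in these profiles and not calls.

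The median of the 26 rested on single profiles. It was 0.47 without non-tumour 1, -0.01 without tumour 1 and -0.03 without non-tumour 2/3/4. Only Hmgcs1 stood higher in every tumour profile than in every non-tumour profile, 1 gene of 26 (3.85%), against 9.47% of all genes tested, and 0 genes stood lower in every tumour profile, against 8.89%. Without non-tumour 1 the first count was 17 of 26, against 21.8% of all genes tested, and it was 5 of 26 (against 14% of all genes tested) without tumour 2/4 and 5 of 26 (against 22.5%) without tumour 3. The 17 genes rest on non-tumour 2/3/4 as the single non-tumour profile. The Kupffer and endothelial markers above moved with non-tumour 1, and their part in these counts was not tested.

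**Figure D2:**
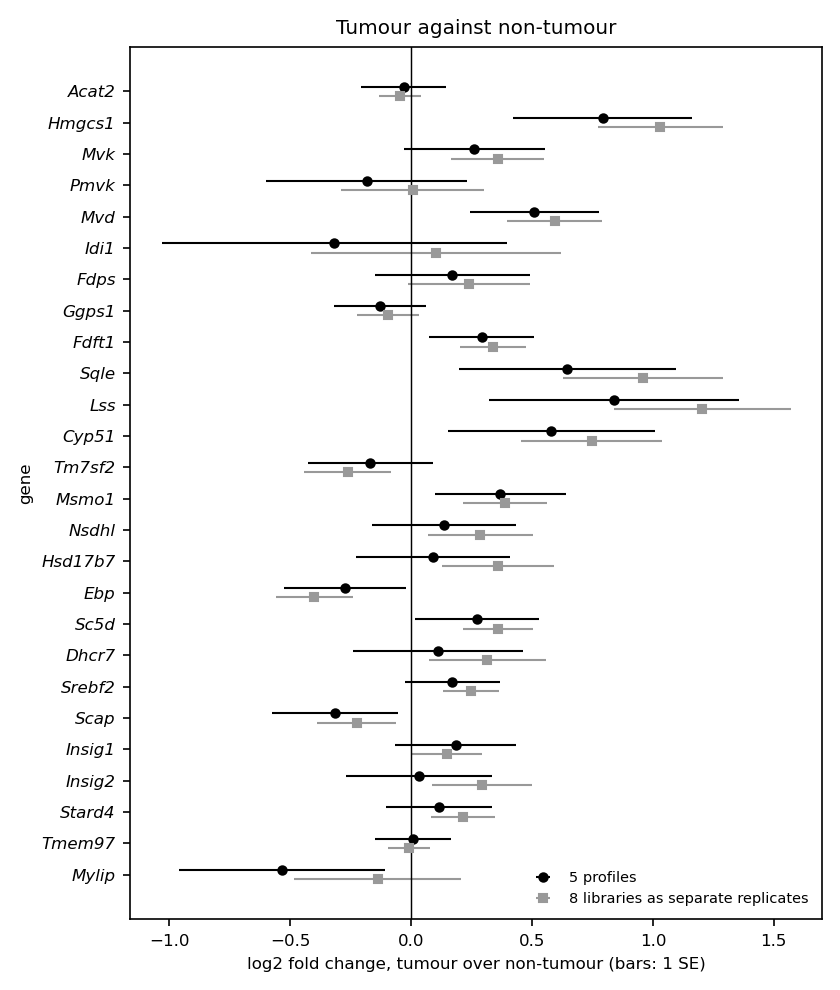
Log2 fold change of tumour over non-tumour for each gene in pathway order, with bars of 1 SE, from the fit over 5 profiles (black circles) and the fit over 8 libraries (grey squares). No gene passes the test in either fit; Hmgcs1, Sqle, Lss and Cyp51 lie farthest to the right and Mylip farthest to the left in the 5-profile fit.

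SREBP2 binds short sterol regulatory elements, usually together with NF-Y at CCAAT boxes and Sp1 at GC boxes, so the promoters of the genes were read for these letters. RefSeq promoters (GRCm38.p6, the 250 bases before the start) were found for 22 of the 26 genes and searched on both strands. CCAAT was present in 20 of the 22 (90.9%), against 33.8% of 32851 promoters in the table and 40.6% of the 10388 tested genes with a promoter. The Sp1 box GGGCGG was also present in 20 of the 22 (90.9%), against 32.7% and 61.2%. TCACNCCA, a short form of the sterol regulatory element, was present in 3 of the 22 (13.6%), Hmgcs1, Msmo1 and Srebf2, against 3.7% and 4.1%. The longer TCACNCCAC, which contains it, was present in Hmgcs1 alone among the 22 (1.1% of all promoters), and CACNCCAC, which overlaps both, in Acat2, Hmgcs1 and Insig1 (5.3% of all promoters). Many elements described for these genes depart from these letters or lie outside this window, and a match is a string of letters, not a shown binding site. The stretches below show the matches in the 3 genes that hold the short form, with the sterol element in capitals, and in Hmgcs1 also the CCAAT boxes, which read ATTGG because they lie on the opposite strand. They run 5′ to 3′ in the direction of the gene. The Hmgcs1 stretch is the whole 250-base window (chr13:119690101-119690350, plus strand), with the sterol element at positions -137 to -130 from the start and CCAAT boxes on the opposite strand at -237 to -233, -176 to -172 and -45 to -41. For Msmo1 (chr8:64733737-64733766, minus strand, element at -177 to -170) and Srebf2 (chr15:82147096-82147125, plus strand, element at -162 to -155), only 30 bases around the match are given. The Msmo1 stretch lies inside the gene as annotated for counting, which ends at 64733792 and covers 214 of the 250 bases of its window, and the Srebf2 stretch lies before its gene, which covers 88 of the 250. No printed sterol element overlaps a CCAAT box.
Hmgcs1: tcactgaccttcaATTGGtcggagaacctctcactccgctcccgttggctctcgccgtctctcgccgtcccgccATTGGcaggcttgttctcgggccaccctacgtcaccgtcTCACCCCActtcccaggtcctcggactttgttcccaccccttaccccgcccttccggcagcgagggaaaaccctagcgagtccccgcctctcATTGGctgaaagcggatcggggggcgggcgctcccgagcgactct
Msmo1: tctcactattcTCACTCCAtccgcgcagcc
Srebf2: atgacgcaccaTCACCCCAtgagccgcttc

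Of the early mevalonate genes, Hmgcs1 showed the widest gap between the groups. It encodes cytosolic HMG-CoA synthase, which makes the precursor of mevalonate (chromosome 13, 119690379 to 119708260, GRCm38), and its promoter is the one above with the long sterol element. It stood at 925, 663, 676 and 631 CPM in tumours 1, 2, 4 and 3, against 571 CPM in non-tumour 1 and 278, 278 and 289 CPM in non-tumours 2, 3 and 4. The groups did not overlap, but tumour 3 and non-tumour 1 were close, and within the non-tumour group non-tumour 1 had a level 1.01 log2 units above non-tumour 2/3/4. The mean was 738 ± 157 CPM in tumours (SD, n = 3) and 426 ± 202 CPM in non-tumour tissue (SD, n = 2), with a log2 fold change of 0.79 (SE 0.37). Scaled by library size alone, tumour 3 stood at 576 CPM and non-tumour 1 at 589 CPM, so the separation depended on the scaling.

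The kinases and the decarboxylase that follow mevalonate varied less. Mvk, mevalonate kinase, stood at 44.0, 30.1, 28.9 and 24.5 CPM in tumours 1, 2, 4 and 3, against 31.7 CPM in non-tumour 1, with 21.7 to 23.6 CPM in non-tumours 2 to 4. Pmvk, phosphomevalonate kinase, had 73.5, 42.0, 40.8 and 32.4 CPM in these 4 tumours, against 72.7 CPM in non-tumour 1, with 36.3 to 39.9 CPM in its 3 fellows. For both genes tumour 1 was highest, but for Pmvk non-tumour 1 nearly equalled it and tumour 3 was the lowest library of all. Mvd, mevalonate diphosphate decarboxylase, ran from 26.5 to 41.5 CPM in tumours and from 18 to 29.2 CPM in non-tumour tissue, a log2 fold change of 0.51 (SE 0.27). Acat2, the cytosolic thiolase at the head of the chain, was nearly flat at 134 to 148 CPM in tumours and 137 to 149 CPM in non-tumour tissue.

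The isoprenoid chain split in tumour 3. Idi1, which isomerises isopentenyl diphosphate (chromosome 13, 8885501 to 8892451), had the widest range of the 26 genes across the profiles, 6.16-fold. It stood at 23.3, 14.4, 14.4 and 4.31 CPM in tumours 1, 2, 4 and 3, against 26.5 CPM in non-tumour 1 and 7.58, 8.94 and 9.36 CPM in non-tumours 2, 3 and 4. Tumour 3 was thus the lowest library for Idi1, with a log2 difference of -1.01 from non-tumour 2/3/4, whereas for Hmgcs1 that difference was 1.15. Fdps, farnesyl diphosphate synthase, ran from 18.7 to 36.2 CPM in tumours and from 17.2 to 30.8 CPM in non-tumour tissue. Its exons share 26.7% of their bases with Gm43738 on the same strand, where reads cannot be assigned to 1 gene, so its level is uncertain. Ggps1, which makes geranylgeranyl diphosphate for protein prenylation instead of sterol, ran from 7.01 to 8.15 CPM in tumours and from 6.93 to 9.07 CPM in non-tumour tissue, a difference no wider than that among the near-identical non-tumours 2, 3 and 4 (1.31-fold).

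The 3 enzymes that commit carbon to sterol all had positive fold changes. Sqle, squalene epoxidase, a rate-controlling step (chromosome 15, 59315077 to 59331192), had levels of 150.1, 101, 99.8 and 75.3 CPM in tumours 1, 2, 4 and 3, against 98.1 CPM in non-tumour 1 and 40.0, 40.0 and 40.9 CPM in non-tumours 2, 3 and 4. Non-tumour 1 was close to tumours 2 and 4 and above tumour 3. Lss, lanosterol synthase, which closes the sterol rings (chromosome 10, 76531588 to 76557138), had levels of 205, 162, 163 and 75.9 CPM in those tumours, against 115 CPM in non-tumour 1 and 48.4, 48.2 and 50.9 CPM in non-tumours 2, 3 and 4. It had the largest log2 fold change of the 26 in the 5-profile fit, 0.84 (SE 0.52), from 147 ± 65.2 CPM in tumours (SD, n = 3) and 82.3 ± 46.5 CPM in non-tumour tissue (SD, n = 2). Fdft1, squalene synthase, ran from 108 to 143 CPM in tumours and from 90.3 to 118 CPM in non-tumour tissue (log2 fold change 0.29, SE 0.22), with tumour 3 second at 134 CPM. For Sqle the log2 fold change was 0.65 (SE 0.45).

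**Figure D3:**
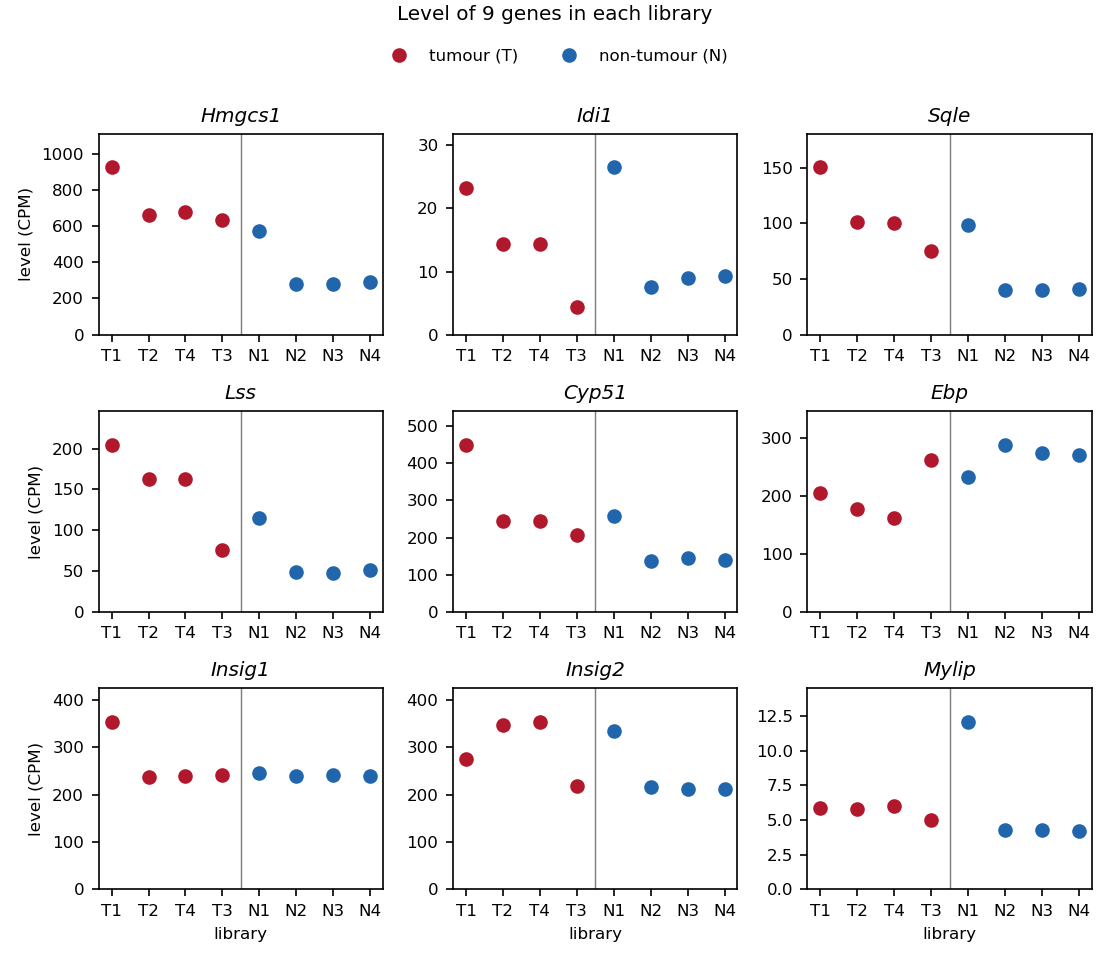
Level in CPM of 9 genes in each library, with tumours (T, red) left of the grey line and non-tumour libraries (N, blue) right of it; each vertical axis starts at 0. Hmgcs1, Sqle, Lss and Cyp51 are lowest in N2, N3 and N4, with N1 within or near the tumour range. Idi1 is lowest in T3, Insig1 stands out in T1 alone, and Mylip in N1 alone.

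Among the enzymes after lanosterol, Cyp51, the lanosterol demethylase (chromosome 5, 4081145 to 4104746), had the widest range. It stood at 449.7, 244, 244 and 207 CPM in tumours 1, 2, 4 and 3, against 259 CPM in non-tumour 1 and 138, 145 and 140.4 CPM in non-tumours 2, 3 and 4. Tumour 1 was the high library, non-tumour 1 lay above the near-identical tumours 2 and 4 and above tumour 3, and the log2 fold change was 0.58 (SE 0.43). Msmo1, which oxidises methyl groups at a later step, ran from 171 to 284 CPM in tumours and from 145 to 189 CPM in non-tumour tissue (log2 fold change 0.37, SE 0.27). Sc5d, a sterol desaturase, ran from 678 to 899.9 CPM in tumours and from 542 to 718 CPM in non-tumour tissue (log2 fold change 0.27, SE 0.26). Averaged over the profiles, Sc5d was the most abundant gene here per exon length.

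Nsdhl and Hsd17b7, a dehydrogenase and a ketone reductase that together remove the methyl groups, and Dhcr7, the reductase of the last double bond in its branch, all had high levels in both libraries numbered 1. Nsdhl stood at 139.7, 97.5, 94.2 and 119 CPM in tumours 1, 2, 4 and 3, against 137 CPM in non-tumour 1, with 72.7 to 80.2 CPM in non-tumours 2 to 4. Hsd17b7 stood at 80.3, 74.9, 70.4 and 54.1 CPM in the tumours, while non-tumour 1 had 84.9 CPM and its fellows 43.7 to 44.8 CPM. Dhcr7 followed with 172, 125, 118 and 93.0 CPM in the tumours, while non-tumour 1 had 152 CPM and its fellows 83.3 to 88.6 CPM. The log2 fold changes of these 3 genes were 0.14 (SE 0.30), 0.09 (SE 0.32) and 0.11 (SE 0.35). Over non-tumour 2/3/4 their log2 differences were 0.84, 0.84 and 0.99 in tumour 1, and 0.81, 0.92 and 0.82 in non-tumour 1.

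Ebp and Tm7sf2 had negative fold changes. Ebp is the sterol isomerase (chromosome X, 8185329 to 8193512). Its level was 205, 177, 162 and 262 CPM in tumours 1, 2, 4 and 3, against 232 CPM in non-tumour 1 and 288, 273 and 271 CPM in non-tumours 2, 3 and 4, a log2 fold change of -0.27 (SE 0.25). It was the only one of the 26 genes with its highest level in non-tumour 2/3/4. Tm7sf2, a sterol reductase, stood at 110.5, 74.3, 71.2 and 124 CPM in the tumours, against 109 to 119.9 CPM in non-tumour tissue, so that only tumours 2 and 4 were low. Its exons share 47.2% of their bases with Vps51 on the same strand, so its level is uncertain.

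The 4 sensing genes ranged from 1.40-fold to 1.76-fold across the profiles. Srebf2, which encodes SREBP2 itself (chromosome 15, 82147181 to 82205379), had levels of 61.5, 56.7, 53.4 and 44.4 CPM in tumours 1, 2, 4 and 3, against 51.3 CPM in non-tumour 1 and 43.6, 44.1 and 43.0 CPM in non-tumours 2, 3 and 4. The 5 profiles stood in the order they had for Lss and Sqle, with a 1.40-fold range across the profiles instead of 4.12-fold and 3.68-fold. Scap, the escort protein, was highest in non-tumour 1 at 148 CPM, with 132.7, 100.5, 93.6 and 84.2 CPM in the tumours and 108 to 114 CPM in non-tumours 2 to 4 (log2 fold change -0.31, SE 0.26).

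The INSIG genes, whose products retain SCAP, did not share a pattern. Insig1, itself induced by SREBP2 (chromosome 5, 28071363 to 28078662), had levels of 354 CPM in tumour 1 and 238, 238 and 242 CPM in tumours 2, 4 and 3, against 246, 238, 242 and 239.7 CPM in non-tumours 1 to 4. It was flat in every library except tumour 1. Insig2, whose liver transcript is known to be lowered by insulin in rodents (chromosome 1, 121304353 to 121332589), had levels of 276, 347, 354 and 218 CPM in tumours 1, 2, 4 and 3, against 334 CPM in non-tumour 1 and 217, 211 and 213 CPM in non-tumours 2, 3 and 4. Tumours 2 and 4 and non-tumour 1 were the high libraries for Insig2, and tumour 3 matched the low non-tumour ones. In tumour 2/4, Insig2 differed from non-tumour 2/3/4 by 0.70 log2 units and Insig1 by -0.03. Lss and Sqle had the largest differences of the 26 genes there, 1.71 and 1.30 log2 units. Of the 26, 19 were higher and 7 lower, with a median of 0.31, and Ebp had the lowest difference at -0.73.

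Of the remaining 3 genes, Stard4, a soluble sterol carrier, was highest in tumour 1 with non-tumour 1 next, and ran from 98.1 to 132 CPM in tumours and from 89.0 to 119 CPM in non-tumour tissue. Tmem97, a sterol-regulated protein of the endoplasmic reticulum, was flat, from 54.5 to 64.9 CPM in tumours and from 57.3 to 62.1 CPM in non-tumour tissue. Mylip, a ubiquitin ligase that sends lipoprotein receptors to degradation and is induced by the oxysterol receptors LXR (chromosome 13, 45389742 to 45412022), had levels of 5.88, 5.79, 6.02 and 5.01 CPM in tumours 1, 2, 4 and 3, against 12.1 CPM in non-tumour 1 and 4.31, 4.30 and 4.18 CPM in non-tumours 2, 3 and 4. Non-tumour 1 alone was high, so that the log2 fold change of -0.53 (SE 0.42) became 0.37 without it. The Kupffer cell and macrophage markers were also high in non-tumour 1 alone (548.9 CPM), and their part in the level of Mylip was not tested.

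Set against non-tumour 2/3/4, the profile in which most of these genes were lowest, the 4 other profiles can be laid side by side, though all share that comparator. The 17 genes lowest in it (65.4%, against 17.2% of all genes tested) are higher in each other profile by definition. The counts below therefore describe levels and do not test whether the pathway differs from other genes. In tumour 1, 23 of the 26 genes were higher (50.7% of all genes tested) with a median log2 difference of 0.77, and 15 were more than 1.5-fold higher (57.7%, against 17.1% of all genes tested). In tumour 2/4 the corresponding counts were 19 (73.1%, against 51.7% of all genes tested) and 7 (26.9%, against 13.5%), with a median of 0.31. In tumour 3 they were 21 (80.8%, against 49.5%) and 6 (23.1%, against 12.8%), with a median of 0.11. Non-tumour 1 had counts of 23 (88.5%, against 48.2%) and 13 (50%, against 15.1%). Its median was 0.54, larger than those of tumour 2/4 and tumour 3. For the squalene and first sterol step, whose 3 genes were all lowest in that profile, the median log2 difference was 1.88 in tumour 1, 1.30 in tumour 2/4, 0.61 in tumour 3 and 1.22 in non-tumour 1.

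Levels of different genes can be compared only per exon length, as TPM (reads per exon length on one library total), averaged over the 5 profiles. Sc5d (300.5 TPM), Hmgcs1 (275 TPM), Ebp (199 TPM), Insig1 (174 TPM) and Insig2 (166 TPM) were the most abundant, and Idi1 (9.21 TPM), Mylip (4.2 TPM) and Ggps1 (3.43 TPM) the least. The SREBP2 transcript Srebf2 averaged 14.6 TPM and Scap 31.5 TPM. Adjacent enzymes differed widely, with Fdft1 at 56.9 TPM, Sqle at 34.6 TPM and Lss at 23.7 TPM along one step of the chain. The length used is that of all annotated exons of a gene (10787 bases for Lss), and which of them are used was not tested. Neighbours in this order, such as Insig1 and Insig2, changed places between profiles, with Insig1 at 236 TPM and Insig2 at 164 TPM in tumour 1, but Insig1 at 188 TPM and Insig2 at 245 TPM in tumour 2.

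**Figure D4:**
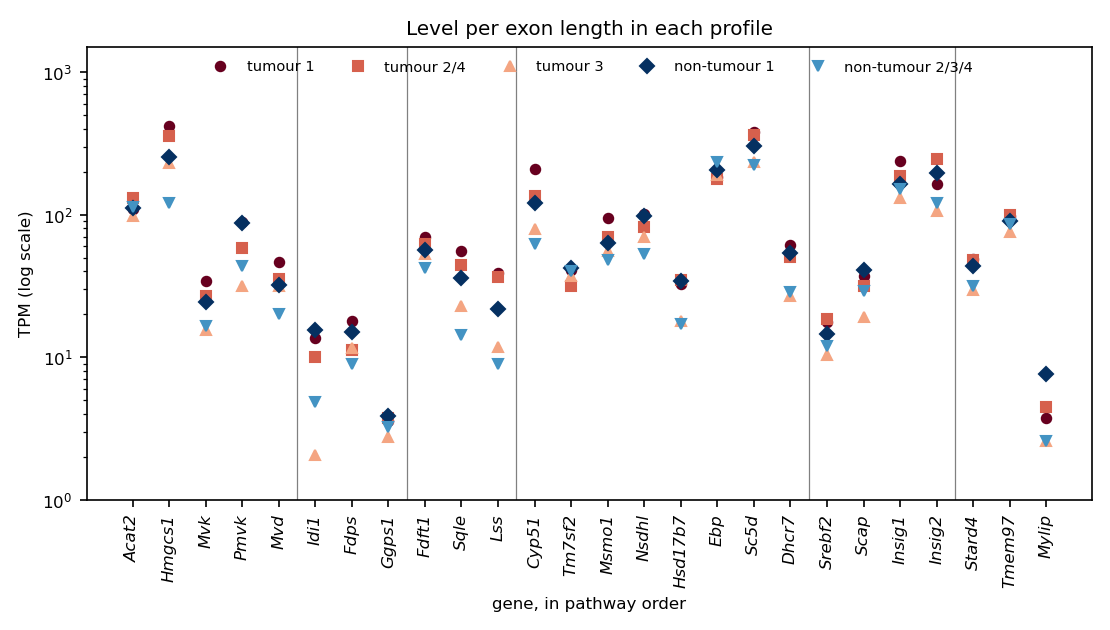
Level per exon length (TPM, log scale) of the 26 genes in pathway order, with 1 symbol for each of the 5 profiles (red shades tumour, blue shades non-tumour; near-identical libraries averaged). Averaged over the profiles, Idi1, Ggps1 and Mylip are the least abundant and Hmgcs1 and Sc5d the most abundant, though the order differs in single profiles. Lss, Sqle and Idi1 spread most between profiles.

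Genes next to the pathway were described in the same way. In the list of SREBP cleavage and sterol-regulated degradation, 0 of 13 genes passed the test in either direction, 6 had positive fold changes and the median log2 fold change was -0.09. Among its members, Mbtps1, the site-1 protease that cuts SREBP, was at 52.6 ± 6.66 CPM in tumours (SD, n = 3) and 67.0 ± 4.86 CPM in non-tumour tissue (SD, n = 2), and Nploc4, a cofactor of protein extraction from the membrane, was at 55.1 ± 12.9 and 74.0 ± 15.4 CPM in tumour and non-tumour tissue. Compared with non-tumour 2/3/4, 0 of these 13 genes were more than 1.5-fold higher in tumour 1, tumour 2/4, tumour 3 or non-tumour 1. The shares of all genes tested were 17.1%, 13.5%, 12.8% and 15.1% in these profiles. Genes that use isoprenoids for products other than sterol (12 genes, 0 passing, 7 positive, median log2 fold change 0.06) included Pdss1, of ubiquinone synthesis, with 2.62 ± 0.872 CPM in tumours, against 1.75 ± 0.0531 CPM in non-tumour tissue. Dhdds, of dolichol synthesis, was at 25.3 ± 2.52 CPM in tumours, against 29.3 ± 1.27 CPM in non-tumour tissue, and Icmt, which methylates prenylated proteins, at 26.0 ± 5.78 and 31.5 ± 2.22 CPM in tumour and non-tumour tissue.

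LXR targets and sterol export genes (10 genes, 0 passing, 5 positive, median log2 fold change 0.01) were led by the half-transporters of biliary sterol. Abcg5 stood at 63.1, 72.9 and 115.5 CPM in tumours 1, 2/4 and 3, against 55.5 and 42.2 CPM in non-tumours 1 and 2/3/4. Abcg8 had 79.9, 85.6 and 109.6 CPM in these tumours, against 79.8 and 49.5 CPM in the non-tumour profiles. Both were highest in tumour 3, the tumour in which Idi1, Lss and Sqle were lowest. Abcb11, the bile salt export pump, stood at 424 ± 29.2 CPM in tumours (SD, n = 3) and 538 ± 65.0 CPM in non-tumour tissue (SD, n = 2). Among genes of cholesterol uptake, esterification and transport (12 genes, 0 passing, 5 positive, median log2 fold change -0.07), Soat2, which esterifies cholesterol in hepatocytes, stood at 40.7, 35.4 and 42.4 CPM in tumours 1, 2/4 and 3, against 26.9 and 31.3 CPM in non-tumours 1 and 2/3/4. Gramd1c, of a family that moves sterol from the plasma membrane, stood at 33.8, 30.2 and 50.7 CPM in the tumours, against 26.0 and 20.6 CPM in the non-tumour profiles. Npc1l1, a sterol uptake protein, was at 5.48 and 1.52 CPM in tumours 1 and 2/4 and listed at 0 in tumour 3, against 0.252 and 0.0841 CPM in non-tumours 1 and 2/3/4. Abcg5, Soat2 and Gramd1c had unadjusted p-values of 0.0419, 0.0376 and 0.0356 and an adjusted p of 0.995 for each in edgeR's test.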

How the data were processed

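Bulk RNA from snap-frozen liver was sequenced in 8 libraries. The labels do not say whether the near-identical libraries are repeats of the same RNA. Each deposited file gives unnormalised counts of reads for 54838 genes in 1 sample. Per the file headers, the authors made these counts with featureCounts 1.6.2 over Ensembl release 95 exons of GRCm38, with strand setting 2 and without the options that count multi-mapping reads or reads overlapping several genes. STAR 2.5.0 and Subread 1.6.2 are listed in the submitters' processing notes. Trimming is not given in the sources used here. Symbols came from a GENCODE table (54723 IDs matched), in which 1 symbol of the cleavage list and 1 hepatocyte marker had no match.

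The members and lists were chosen with earlier results of these data known, as was tumour 1 for the count of highest levels. Also made with those results known was the decision to sum libraries of a group whose counts differed by a chi-square per degree of freedom under 10 (genes with 20 or more reads). The list's rule names 30 genes, of which 26 are reported here; the others, and 1 gene of another list, are not reported here. Groups were compared with edgeR 4.0.16 in R 4.3.3 (robust glmQLFit and glmQLFTest, TMM scaling, filterByExpr, Benjamini-Hochberg adjustment over all genes tested, threshold 0.05). CPM by library use TMM factors of the 8 libraries, and CPM by profile, means and SDs those of the 5 profiles. SEs are the log2 fold change over the root of F. Log2 differences between profiles used CPM plus 0.01. Named genes of other lists were taken from those with the 3 lowest p-values. The 5 motif forms were settled after matches were seen. Alternatives used DESeq2 1.42.0, limma 3.58.1, other scalings and filters, separate libraries with and without a replicate block, and each profile left out. The code was tested on simulated data. A count of 3 equals 0.137 to 0.194 CPM, which limits low values for counting error only.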

Additional observations from a re-analysis of the deposited data

How the results depend on the processing

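No alternative called any of the 26 genes. The count higher in every tumour profile, 1 in the 5-profile fit, was 0 with library-size scaling (9.79% of all genes) and 1 to 17 with a profile left out. It was 5 without tumour 2/4 (14% of all genes), 5 without tumour 3 (22.5%), 17 without non-tumour 1 (21.8%), 1 without tumour 1 (14.3%) and 1 without non-tumour 2/3/4 (24.1%). The median log2 fold change was 0.095 to 0.269 under the alternatives that kept every profile and -0.031 to 0.473 with a profile left out. The 17 genes highest in tumour 1 were 15 to 17 under other scalings and filters and 16 to 21 with another profile left out. Over all genes, 0 were called in the 5-profile fit, 56 with 8 separate libraries, 427 with no low-count filter, 6 with DESeq2 and 5 without tumour 3. For the 11 genes whose log2 fold change exceeded its SE, 174 of 176 alternative values kept their direction. The exceptions were Mylip with the replicate block (0.01) and without non-tumour 1 (0.37; -1.11 to 0.37 over the profiles left out). The cause of the first was not tested; in the second a single library at 12.1 CPM was removed. For the other 15 genes, 206 of 240 kept it, and their direction is not firm. A fit with a single non-tumour profile left assumes that it varies like the tumours.

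The labels number both groups 1 to 4. Deviations of same-numbered libraries from their group means had correlations of 0.36, -0.19, 0.31 and -0.17 for numbers 1 to 4. Non-tumours 2, 3 and 4 were nearly the same, so a tumour correlated about equally with each (tumour 3 at 0.317, 0.307 and 0.312). The correlations therefore cannot show or exclude pairs by number. As the labels do not give the mouse of each piece, the numbers were not taken as pairs. With the replicate block over 8 libraries the median log2 fold change was 0.27 and 0 of 12880 genes passed, against 56 without it. With the block 13 of the 26 genes had an unadjusted p under 0.05 in edgeR's test, against 2264 of all 12880 genes. Without it 8 of the 26 had one, against 2321 of all genes. With the block the lowest edgeR adjusted p-values among the 11 genes above were 0.0518 for Hmgcs1, 0.0539 for Sqle and 0.0545 for Cyp51. Each of the 26 genes had at least 63 reads in every library, and the groups held 3 and 2 profiles; how far each limits the precision was not tested.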

Other observations

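The genes of fatty acid synthesis linked to SREBP1, the sister factor of SREBP2, were followed as a comparison list of 14 genes. They summed to 10549, 10953, 10889 and 11016 CPM in tumours 1, 2, 4 and 3, against 13635 CPM in non-tumour 1 and 7230, 7595 and 7309 CPM in non-tumours 2, 3 and 4. Here non-tumour 1 was above every tumour, whereas for the 26 cholesterol genes tumour 1 was above it. The test of tumour against non-tumour called 0 of the 14, 8 had positive fold changes and the median log2 fold change was 0.26. Over non-tumour 2/3/4, 13 of the 14 were more than 1.5-fold higher in non-tumour 1 (92.9%, against 15.1% of all genes tested). The counts were 7 in tumour 1 (50%, against 17.1%), 5 in tumour 2/4 (35.7%, against 13.5%) and 6 in tumour 3 (42.9%, against 12.8%). Acaca, acetyl-CoA carboxylase, stood at 55.9, 62.6 and 44.9 CPM in tumours 1, 2/4 and 3, against 56.0 and 33.2 CPM in non-tumours 1 and 2/3/4. Acacb, its mitochondrial counterpart, stood at 66.6, 49.2 and 40.8 CPM in the tumours, against 85.4 and 50.4 CPM in the non-tumour profiles. Fads1, a fatty acid desaturase, stood at 797, 563 and 585 CPM in the tumours, against 612 and 431 CPM in the non-tumour profiles. The difference between the cholesterol and fatty acid lists was not tested.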
